A study of Mus musculus with 15 samples.

Results

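The 10 genes described here encode the heat shock proteins that heat shock factor 1 (HSF1) is known to induce. They were chosen by gene symbol, with earlier results of these data known, and all 10 were found among the 20207 genes of each table. They comprise Hspa1a, Hspa1b and Hspa8 of the HSP70 family, Hsph1, Hspa4 and Hspa4l of the HSP110 family, the HSP40 gene Dnajb1, the HSP90 gene Hsp90aa1, and the mitochondrial chaperonin genes Hspd1 and Hspe1.

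The mRNA-seq libraries were made from NIH3T3, a fibroblast line from mouse embryos, and all 15 samples came from cells with a stable DD-sfGFP transgene. In this fusion superfolder GFP carries a destabilizing domain (DD), an FKBP variant with the L106P substitution, which is folded while the ligand Shield-1 (S1) is bound and unfolds when S1 is taken away. In the 5 control samples (cont) S1 stayed in the medium. In 3 samples at 45 min (DD 45min), 3 at 135 min (DD 135min) and 4 at 405 min (DD 405min), S1 had been withdrawn for that time by adding purified FKBP(F36V) protein, which binds the ligand. The cells had been sorted for high DD-sfGFP, so the values describe a selected population with a strongly expressed transgene. Heat-shocked cells, which the study also used, were not analysed here. The labels do not say whether replicates came from separate cultures, so p-values measure only the spread between these samples.

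Cytosolic chaperones of the HSP70, HSP40, HSP90 and HSP110 families hold unfolded proteins in a form that can fold or be degraded. HSF1 is kept inactive by these chaperones in unstressed cells and is released when unfolded proteins occupy them. It then binds heat shock elements, which are repeats of the unit GAA and its reverse complement TTC placed head to head or tail to tail.

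Total counts ran from 6652539 to 30258404 per library. The libraries were divided into 2 sets by how strongly the normalised count of a gene depended on the GC content of its exons. The labels do not give this split, which is a cut at a slope of 0.15 on a graded scale. Library set 2 held control replicate 2, 45-min replicate 3 and 405-min replicates 1, 2 and 4, and library set 1 held the other 10 samples, among them all 3 of the 135-min group. Values within the sets therefore stand beside many of the results they touch. Within set 1 the slope per 10 points of GC content was −0.715 (replicate 3) to −0.286 in the controls. It was −0.216 to −0.111 at 135 min and −0.195 in 405-min replicate 3. Comparisons with control within set 1 thus still hold a difference in GC dependence. The 6 fibroblast markers searched for were present in every library. The 10 measured markers of other cell types reached at most 1.9 RPKM (Cd68), a read count scaled by transcript length and depth, and each but Tubb3 was at 0 in at least 1 library. Their summed level was 0.777 to 1.83 RPKM in the control, 45-min and 135-min libraries and 2.48 to 3.34 RPKM at 405 min, while the summed level of the fibroblast markers was 1590 to 1890 RPKM at 405 min, 1160 to 2560 in the controls, 2220 to 2700 at 45 min and 2330 to 2540 at 135 min. The 1160 came from control replicate 3, whose RPKM were low for their normalised counts (CPM, explained below). Vim, the highest fibroblast marker, stood there at 738.6 RPKM and 5510.2 CPM, against 1496 RPKM and 5089.5 CPM in control replicate 2. At 405 min Vim was at 3308 to 4189 CPM, against 4907 to 6387 CPM in the controls. In CPM Pdgfrb also lay below every control at 405 min, while Col1a1, Col1a2, Fn1 and Thy1 overlapped the controls. The part of either sum in the results at 405 min was not tested.

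Promoter sequences of RefSeq (GRCm38.p6, 250 bases before to 50 after each annotated start) were available for 8 of the 10 genes, and Hspa8 and Hsp90aa1 were not among them. The letters GAANNTTC and TTCNNGAA, each a pair of heat shock units, were searched on both strands. At least 1 of them was found in 5 of the 8 genes, namely Hspa1a, Hspa1b, Hspd1, Hspe1 and Hsph1, while 17% of the 27025 genes with a window held one. None was found in the windows of Dnajb1, Hspa4 and Hspa4l, which says only that these letters are not in these windows. The segments around the matches are given 5′ to 3′ with the paired units in capitals. They are matches of letters only, and binding of HSF1 to them was not measured. The Hspa1b segment is chr17:34959295-34959382 on the minus strand, and its 88 bases are identical in Hspa1a. The Hspe1 segment is chr1:55088019-55088116 on the plus strand, and read on the minus strand the same bases belong to the promoter of Hspd1. The Hsph1 segment is chr5:149636322-149636409 on the minus strand.
Hspa1b: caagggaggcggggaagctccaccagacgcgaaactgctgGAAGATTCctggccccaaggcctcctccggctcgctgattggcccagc
Hspe1: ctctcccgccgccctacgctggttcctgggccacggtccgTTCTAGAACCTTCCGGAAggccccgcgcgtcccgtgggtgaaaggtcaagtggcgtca
Hsph1: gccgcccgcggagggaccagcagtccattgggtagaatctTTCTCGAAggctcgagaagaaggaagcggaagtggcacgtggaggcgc

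The Hspa1b and Hspa1a windows each held 1 head-to-head pair, 104 to 97 bases before the start. The region between Hspd1 and Hspe1 held 4 units in an unbroken run, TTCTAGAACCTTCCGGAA, which overlaps 3 pairs. It lay 89 to 72 bases before the Hspe1 start and 144 to 127 bases before one of the Hspd1 starts. A run of 4 units, with any bases between the units, was found in 8 of these 27025 genes (0.0296%). The Hsph1 windows, which belong to different annotated starts, held 1 tail-to-tail pair before the start and a run of 3 units, TTCTGGAAAGTTC, after it. The run lay 16 to 28 or 37 to 49 bases after the start, depending on the start taken. A run of 3 units stood in 0.662% of the genes. The Hsph1 segment printed above holds the pair only, since the run lies beyond its end. The Hspa1b and Hspa1a windows differ at 4 of 300 bases, and the genes also share 62.1% of the 50-base stretches of the Hspa1b transcript, so that reads could be split between them and both values are uncertain.

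**Figure D1:**
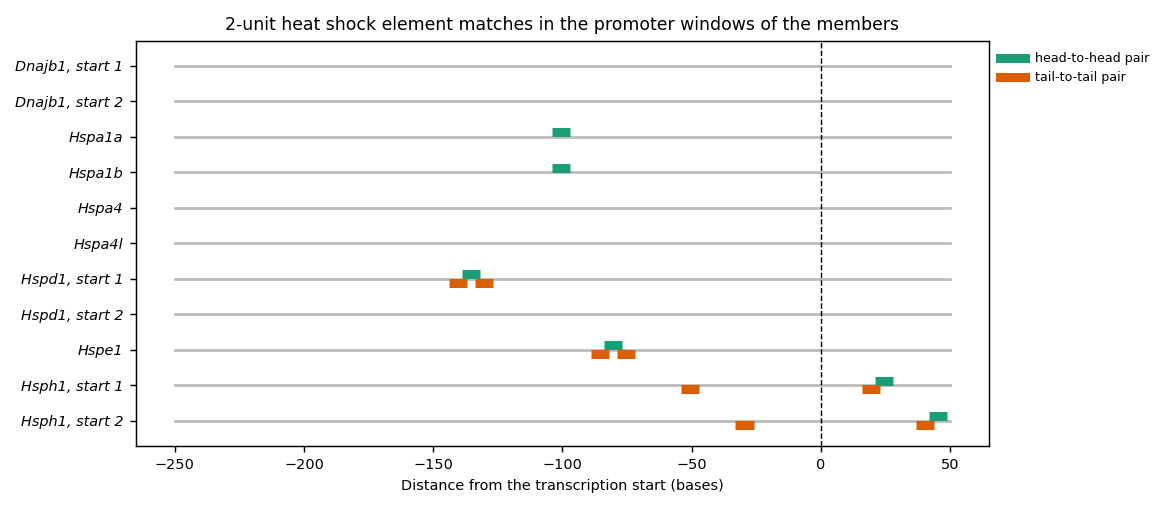
Positions of paired heat shock units in the RefSeq promoter windows of 8 members, 1 line per annotated start, with the distance from the start in bases on the x axis. Coloured blocks are head-to-head and tail-to-tail pairs; the 3 overlapping pairs of Hspd1 and Hspe1 are the same 18 bases of DNA read from either side.

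In control cells the levels of the 10 genes, compared per length in RPKM as computed by the authors, spanned a wide range. Hspa8, the constitutive HSP70, was listed at 332.3 to 1440.0 RPKM over the 5 control libraries. Hsp90aa1 followed at 367.4 to 587.9 RPKM, Hspd1 at 246.8 to 432.6 and Hspe1 at 163.0 to 485.2. The low end of each of these ranges was control replicate 3, whose RPKM were low for their normalised counts. There Hspe1 stood at 163.0 RPKM and 509.2 CPM, against 347.6 RPKM and 495.3 CPM in control replicate 2. The SDs that follow include that library. Hspa4 stood at 83.7 ± 22.1 RPKM (SD, n = 5), Hsph1 at 45.5 ± 18.5 and Hspa4l at 30.4 ± 14.5. The inducible genes Hspa1b and Dnajb1 were the lowest of the readily detected members, at 4.57 ± 1.65 and 4.09 ± 2.21 RPKM (SD, n = 5). In this order neighbouring genes overlapped in their control ranges, except that Hspe1 was above Hspa4, and Hspa4l above Hspa1b, over all control libraries. Hspa1a was at 0 in 3 of the 5 control libraries. Hspa8, Hsp90aa1, Hspd1 and Hspe1 have processed copies elsewhere in the genome, so that some of their reads may have been assigned to a copy.

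Summed over the 10 genes, the normalised read count in CPM (counts scaled by depth and by TMM factors, which correct for a few genes taking up a library) was 10807.7 to 12382.1 in the controls. At 45 min it was 11900.6 to 12217.0 CPM, within the range of the controls. It was 17183.7 to 17712.9 CPM at 135 min and 17679.8 to 21341.2 CPM at 405 min, in both cases above every control. Hspa8 alone made up 25.0% to 52.0% of the sum in the controls, 39.6% to 57.6% at 45 min, 45.3% to 48.0% at 135 min and 47.7% to 59.5% at 405 min. The highest control share, the highest 45-min share and all but the lowest 405-min share came from library set 2.

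**Figure D2:**
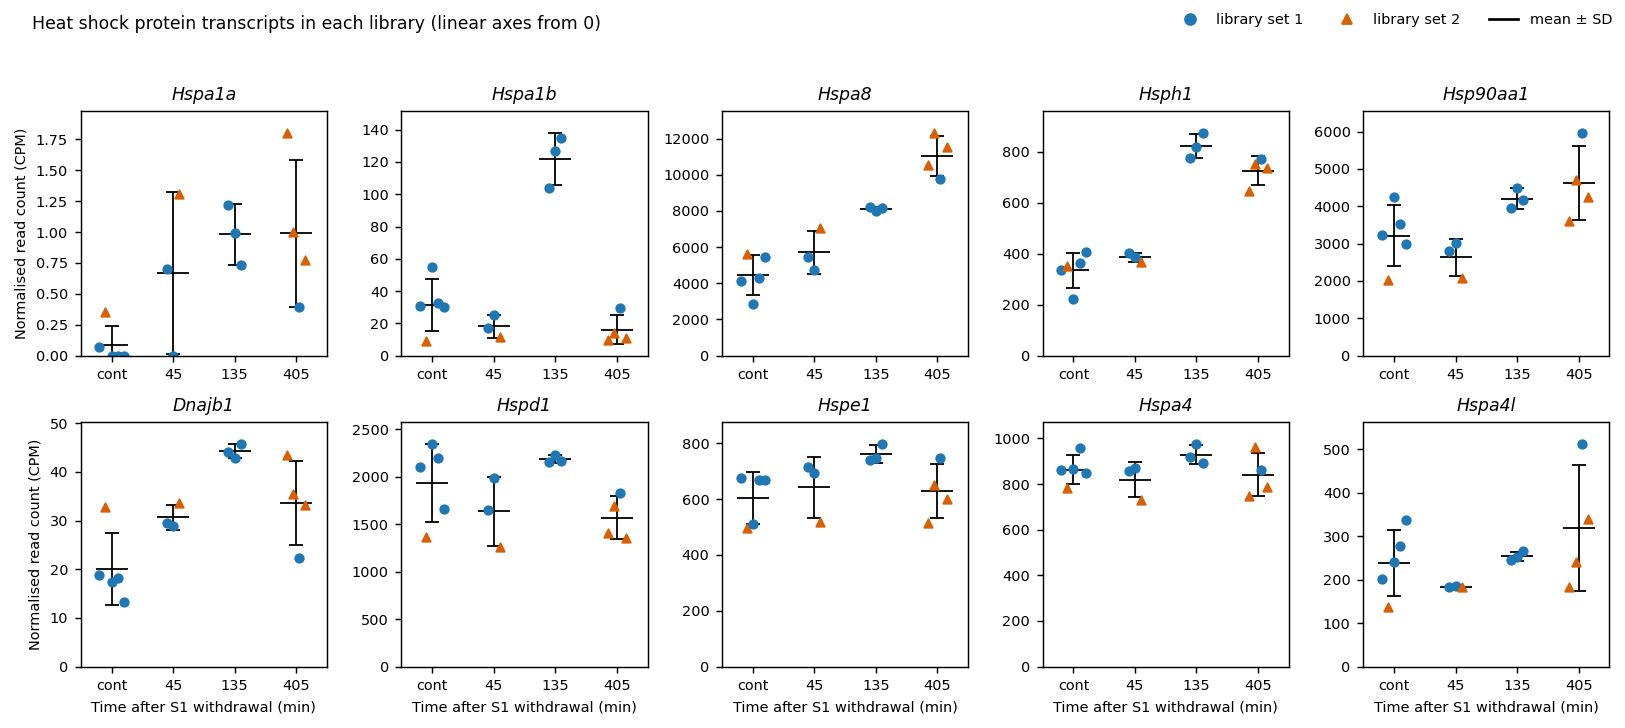
Normalised read count in CPM of each member in all 15 libraries, by time after S1 withdrawal in min, on linear axes from 0. Points are libraries (circles, library set 1, and triangles, library set 2) and bars are the group mean ± SD. Hspa1b stands high at 135 min alone, while Hspa8 and Hsph1 stand above every control at both later times.

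Changes were tested with edgeR's quasi-likelihood test over 10276 genes in a single fit of all 15 samples, with Benjamini-Hochberg adjustment and a threshold of 0.05. Of the 10 members 9 passed the filter of at least 1 count in every sample, and Hspa1a did not. At 45 min no member was called in either direction, against a background of 0% of all genes. At an unadjusted p under 0.05 there were 1 member and 365 genes, and DESeq2 called 0 members and 6 genes in all. Dnajb1 had the lowest p of the members (0.0312, adjusted p = 0.698), with a log2 fold change of 0.61 ± 0.26 (SE). The other 8 members lay between −0.80 for Hspa1b and 0.36 for Hspa8.

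At 135 min 4 of the 9 tested members were called higher than control and none lower, against 0.564% of all genes called higher and 0.895% called lower. They were Hspa1b, Hsph1, Dnajb1 and Hspa8. The median log2 fold change of the 9 members was 0.39, and that of all genes was −0.06. At 405 min 3 members were called higher and none lower, against a background of 9.99% higher and 13.4% lower, so the members' count stands beside a much larger share of all genes. These were Hspa8, Hsph1 and Dnajb1. The median over the 9 members was 0.42 and that over all genes −0.00.

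**Figure D3:**
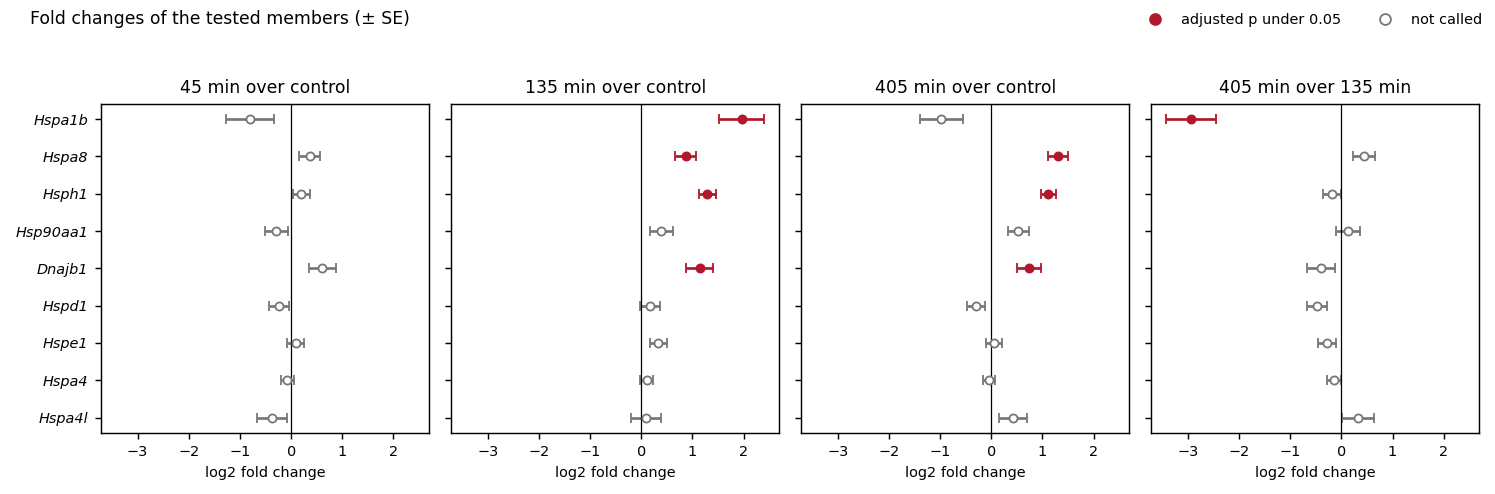
Log2 fold changes ± SE of the 9 tested members for 3 time points over control and for 405 min over 135 min. Filled red points passed an adjusted p of 0.05; none did at 45 min, 4 did at 135 min and 3 at 405 min, and Hspa1b was called lower at 405 min than at 135 min.

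Hspa1b (chr17:35093374-35096183 in mm9) encodes the stress-inducible form of HSP70, and it had the largest fold change of the 9 tested members at 135 min. In control replicates 1 to 5 it stood at 31.0, 9.0, 54.7, 32.5 and 29.9 CPM. At 45 min the replicates were at 17.3, 25.4 and 11.4 CPM. At 135 min they were at 104.0, 127.0 and 134.7 CPM, every one of them above all controls. At 405 min Hspa1b stood at 9.8, 14.1, 29.3 and 10.7 CPM, below every 135-min library and overlapping the controls.

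Hspa1b thus rose 3.9-fold at 135 min over control, with a log2 fold change of 1.96 ± 0.44 (SE) and an edgeR adjusted p of 0.039. Against 45 min the log2 difference was 2.76 ± 0.54 with an adjusted p of 0.0375. From 135 to 405 min it fell by 2.94 ± 0.49 on the log2 scale (adjusted p = 0.00632), to 0.13 times its level, and 2.82% of all genes were called lower between these times. At 405 min its log2 difference from control was −0.97 ± 0.43 and was not called (adjusted p = 0.101).

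The level of Hspa1b also went with the library set. In the fit with a term for set it was 1.42 lower (log2) in library set 2 than in set 1 (adjusted p = 0.00019), and 3 of the 4 libraries at 405 min were of set 2. The rise at 135 min was 1.74 ± 0.23 within library set 1 (3 against 4 libraries, adjusted p = 0.00254). With an offset for GC content it was 1.74 ± 0.65 and was not called (adjusted p = 0.196). The fall from 135 to 405 min was −1.99 ± 0.31 with the set in the model (adjusted p = 0.00284) and −2.07 ± 0.40 within set 1, where 1 library stood at 405 min and the adjusted p was 0.0777. The difference from control at 405 min shrank to −0.16 ± 0.26 with the set in the model. Without control replicate 2 it was −1.21 and without 405-min replicate 3 it was −1.43, and both were called lower (adjusted p = 0.00956 and 0.0219).

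Hspa1a, the near-identical neighbour of Hspa1b with 10120 bases between them on chromosome 17, was scarcely detected. Control replicates 1 and 2 held 1 and 7 counts and the other 3 held 0. The 45-min replicates held 21, 0 and 22 counts and the 135-min replicates 20, 19 and 20. At 405 min there were 26, 21, 4 and 14 counts. In CPM the controls reached at most 0.35 while the 135-min libraries lay between 0.73 and 1.22, so those groups did not overlap, and at 405 min the level was 0.39 to 1.80 CPM. With edgeR's own expression filter the log2 difference of Hspa1a between 405 and 135 min was −0.01 ± 1.0 (adjusted p = 0.995), and whether it differed from that of Hspa1b was not tested. With that filter Hspa1a was called higher at 405 min (adjusted p = 0.0428) and not at 135 min (0.236), and with no filter at neither time (0.0643 and 0.358). When the counts of both genes were summed, the log2 fold change of the pair was 1.97 at 135 min and −2.86 from 135 to 405 min, as these counts are nearly all from Hspa1b.

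Hspa8 (chr9:40609356-40613282 in mm9) encodes HSC70, the HSP70 that cells make at all times, and it was the most abundant member. The controls stood at 4104.0, 5620.5, 2843.1, 4287.0 and 5423.7 CPM and the 45-min replicates at 5432.8, 4710.9 and 7031.9 CPM. At 135 min the 3 libraries lay close together at 8242.6, 8018.6 and 8134.8 CPM. At 405 min they were at 10519.6, 12300.2, 9765.7 and 11518.4 CPM. Each time point was thus above the one before it from 45 min on without overlap, and the 2 later groups were above every control.

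Hspa8 rose 1.83-fold at 135 min (log2 fold change 0.87 ± 0.20, edgeR adjusted p = 0.0478) and 2.47-fold at 405 min (1.31 ± 0.19, adjusted p = 0.000467). The step from 135 to 405 min, a log2 difference of 0.44 ± 0.22, was not called (adjusted p = 0.202). In the edgeR fit with a term for set, Hspa8 was 0.37 higher (log2) in library set 2 (adjusted p = 0.037). No 135-min library and most 405-min libraries belong to that set. The lowest 405-min value, 9765.7 CPM, came from the 405-min library of set 1. Within library set 1 the log2 fold changes were 0.97 ± 0.18 at 135 min and 1.22 ± 0.25 at 405 min, and within set 2 it was 1.02 ± 0.30 at 405 min (3 against 1 library, adjusted p = 0.0778).

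Hsph1 (chr5:150419420-150438890 in mm9) encodes HSP110, the exchange factor that lets HSP70 release its nucleotide and its substrate. Its controls were at 334.7, 351.4, 222.6, 362.8 and 406.5 CPM, and the 45-min libraries were at 404.1, 385.4 and 366.6 CPM, inside that range. At 135 min Hsph1 stood at 776.1, 820.1 and 872.9 CPM. At 405 min it stood at 644.0, 750.5, 770.7 and 737.8 CPM, so that every library of both later groups was above every control.

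The log2 fold change of Hsph1 was 1.29 ± 0.16 at 135 min (2.45-fold, edgeR adjusted p = 0.000399) and 1.11 ± 0.15 at 405 min (2.16-fold, adjusted p = 0.000286). From 45 to 135 min it rose by 1.09 ± 0.18 (adjusted p = 0.0137), where 0.185% of all genes were called higher. The difference between 405 and 135 min, −0.18 ± 0.17, was not called (adjusted p = 0.483). Hsph1 hardly depended on the library set (−0.04, adjusted p = 0.82), and within set 2 it was 1.01 ± 0.25 higher at 405 min (3 libraries against 1 control, adjusted p = 0.0295). In these fits a lone library is assumed to vary like the others. Hsph1 was the only member called at both later times under every alternative that could be run, including fits with 1 library in an arm; the 135-min group has no library in set 2.

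Dnajb1 (chr8:86132074-86135801 in mm9) encodes HSP40, which delivers unfolded proteins to HSP70 and stimulates its ATPase. The controls were at 18.8, 32.7, 17.3, 18.2 and 13.3 CPM and the 45-min libraries at 29.6, 28.8 and 33.6 CPM. At 135 min Dnajb1 stood at 44.1, 42.9 and 45.7 CPM, above every control. At 405 min it stood at 43.4, 35.5, 22.3 and 33.2 CPM, and replicate 3 lay below the highest control, which was replicate 2.

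Dnajb1 rose 2.20-fold at 135 min (log2 fold change 1.14 ± 0.25, edgeR adjusted p = 0.0378) and 1.67-fold at 405 min (0.74 ± 0.24, adjusted p = 0.037). Dnajb1 was 0.67 higher (log2) in library set 2, to which the highest control and 3 of the 405-min libraries belong. Within set 1 its log2 fold change was 1.40 ± 0.17 at 135 min (adjusted p = 0.00162) and 0.40 ± 0.24 at 405 min (1 against 4 libraries, adjusted p = 0.443), and within set 2 it was 0.18 ± 0.24 at 405 min (3 against 1 library, adjusted p = 0.777). With the set in the model the call at 405 min was lost (0.40 ± 0.17, adjusted p = 0.151), and Dnajb1 was then called lower at 405 than at 135 min (−0.93 ± 0.21, adjusted p = 0.0232), in place of −0.40 ± 0.27 (adjusted p = 0.334).

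Hsp90aa1 (chr12:111929246-111934605 in mm9) encodes the inducible cytosolic HSP90, which matures kinases and steroid receptors. It was not called at any time. The controls stood at 3242.6, 2015.8, 4260.3, 3520.9 and 2999.3 CPM and the 45-min libraries at 2796.5, 3012.7 and 2080.3 CPM. The 135-min libraries stood at 3960.9, 4496.7 and 4162.2 CPM, and those at 405 min at 3607.2, 4698.7, 5958.9 and 4247.8 CPM. Both later groups overlapped the controls, whose highest library was replicate 3, and the lowest control, 45-min and 405-min values all came from library set 2.

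The log2 fold change of Hsp90aa1 was 0.39 ± 0.22 at 135 min (edgeR adjusted p = 0.515) and 0.53 ± 0.20 at 405 min (adjusted p = 0.0694). Hsp90aa1 was 0.60 lower (log2) in library set 2. With the set in the model its log2 fold change at 405 min was 0.87 ± 0.14 and was called (adjusted p = 0.000552). Within set 1 it was 0.76 ± 0.18 (1 against 4 libraries, adjusted p = 0.0609) and within set 2 it was 1.04 ± 0.29 (3 against 1 library, adjusted p = 0.0542).

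Hspd1 and Hspe1 encode HSP60 and HSP10, which form the folding chamber of the mitochondrial matrix, and are transcribed in opposite directions with 215 bases between them on chromosome 1. Neither was called in any comparison of the reported fit. Hspd1 stood at 1366.0 to 2341.1 CPM in the controls, 1260.9 to 1988.5 at 45 min, 2151.3 to 2232.1 at 135 min and 1349.2 to 1821.8 at 405 min. Its log2 fold change was 0.18 ± 0.19 at 135 min (edgeR adjusted p = 0.775) and −0.30 ± 0.18 at 405 min (adjusted p = 0.208). Hspe1 stood at 739.5, 747.5 and 796.7 CPM at 135 min, above every control, which ran from 495.3 to 676.8 CPM. Its log2 fold change was 0.33 ± 0.16 at 135 min (adjusted p = 0.447) and 0.06 ± 0.15 at 405 min (adjusted p = 0.784). In the edgeR fit with a term for set, library set 2 was lower (log2) by 0.48 for Hspd1 (adjusted p = 0.0040) and 0.38 for Hspe1 (adjusted p = 0.0080). Most 405-min libraries belong to that set. Within set 2, where control replicate 2 is the only control, Hspd1 was 0.11 ± 0.26 at 405 min. Hspd1 and Hspe1 are the genes with the 4-unit run printed above.

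Hspa4 and Hspa4l, the other members of the HSP110 family, were not called at any time either. Hspa4 varied least, between 730.6 and 974.8 CPM over all 15 libraries, with log2 fold changes of 0.11 ± 0.13 at 135 min and −0.04 ± 0.12 at 405 min. Hspa4l ran from 136.2 to 337.3 CPM in the controls, from 182.4 to 185.5 at 45 min, from 245.2 to 265.5 at 135 min and from 183.2 to 512.0 at 405 min. Its log2 fold change at 405 min was 0.42 ± 0.27 (edgeR adjusted p = 0.244) and became 0.77 ± 0.22 with the library set in the model (adjusted p = 0.0313). Within set 1 it was 0.95 ± 0.22 (1 against 4 libraries, adjusted p = 0.0514), and that library was the highest of all at 512.0 CPM.

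**Figure D4:**
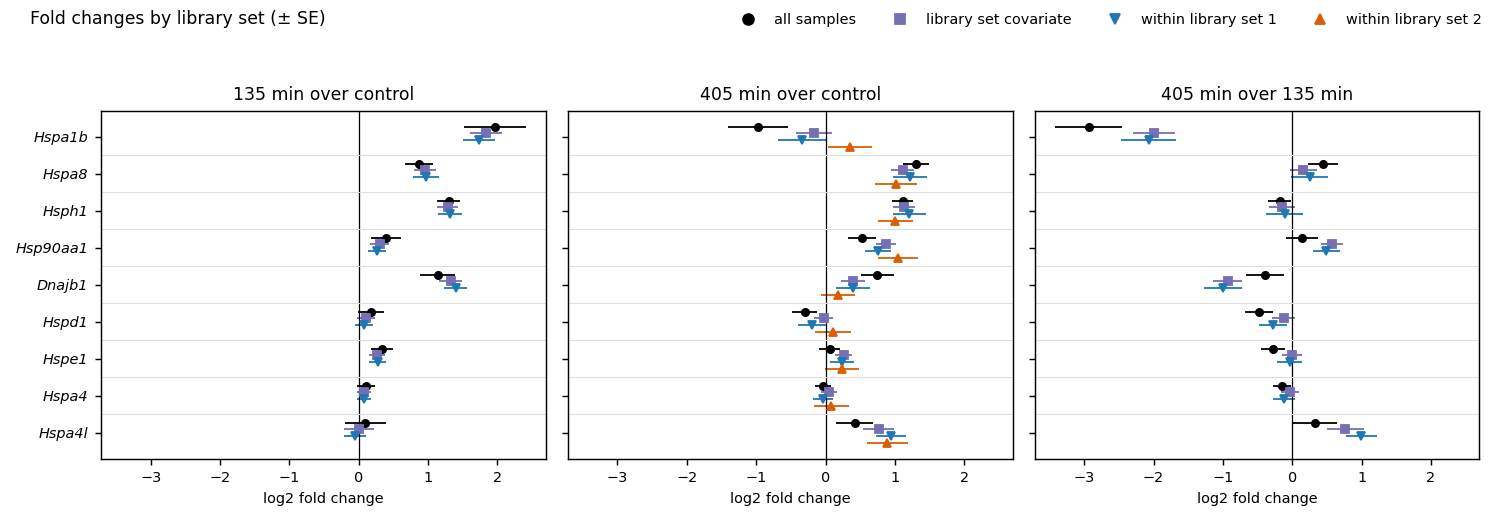
Log2 fold changes ± SE of the 9 tested members from all samples, with the library set as a term, and within each set. At 135 min, which has no value in set 2, Dnajb1 moves from 1.14 to 1.40 between all samples and set 1, and at 405 min Hspa1b moves from −0.97 to 0.35 and Hsp90aa1 from 0.53 to 1.04 between all samples and set 2 alone.

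Several of the calls at 135 min were lost when single libraries were left out. Hsph1 was the only member called there after control replicate 1, 4 or 5 was left out, and likewise without 45-min replicate 1, any 135-min replicate, or 405-min replicate 2 or 4. In these fits 0.194% to 0.426% of all genes were called higher, against 0.564% with every library. Without 45-min replicate 2 the calls were Hsph1 and Hspa1b, beside 0.496% of all genes. Hspa8 alone lost its call without 405-min replicate 1 or 3, and Dnajb1 alone without control replicate 3. There 0.525%, 0.573% and 0.626% of all genes were called higher. Over the 27 alternatives run at 135 min, leave-outs included, the call was lost in 17 for Hspa8, 14 for Dnajb1 and 13 for Hspa1b. The fold changes themselves moved less, with log2 values of 1.73 to 2.25 for Hspa1b, 0.75 to 0.97 for Hspa8, 1.03 to 1.39 for Dnajb1 and 1.18 to 1.38 for Hsph1 over the 15 fits that each lack 1 library. At 405 min Dnajb1 lost its call without control replicate 1, 3, 4 or 5, without any 135-min replicate, and without 405-min replicate 1, 2 or 4. In these fits 4.06% to 8.2% of all genes were called higher at 405 min, against 9.99% with every library. From 45 to 135 min no member was called when any library of either group was missing, where 0.0292% to 0.0778% of all genes were called higher, against 0.185%. The fall of Hspa1b from 135 to 405 min was called in all 15.

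Over the 15 samples the members did not move as a single block. Log2 CPM of Hspa8 and Hsph1 correlated with a Pearson r of 0.89, and Hspa1b correlated with Hspd1 (0.86), Hspa4 (0.67) and Hspe1 (0.65). Hspa1b and Hspa8 had an r of −0.17, and Hspa8 and Hspd1 one of −0.44. The points share their group and library set, so these values are a description. The 5 other genes whose log2 CPM was most like the mean standardised profile of the 9 members were Ccng1 (r = 0.928), 1190002N15Rik (0.916), Nup160 (0.916), 4632434I11Rik (0.904) and Vps36 (0.901). Ccng1 averaged 446 CPM in the controls, 402 at 45 min, 806 at 135 min and 698 at 405 min.

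Of 19 other genes of the HSF1 network, 18 were tested, and Hspb1 was not because it was at 0 in most libraries. None was called at 45 min, 3 were called higher at 135 min and 12 at 405 min, and none was called lower than control at any time. Of all genes 0% were called at 45 min, 0.564% higher and 0.895% lower at 135 min, and 9.99% higher and 13.4% lower at 405 min. The median log2 fold changes of the 18 genes were 0.13, 0.36 and 0.98, beside 0.02, −0.06 and −0.00 for all genes. The genes called at 135 min were Zfand2a, which encodes a proteasome-associated protein induced by misfolding, the HSP70 cochaperone gene Bag3 and Hsf2, a second heat shock factor.

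Zfand2a stood at 37.2 ± 7.4 CPM in control (SD, n = 5), 51.2 ± 10.6 at 45 min (n = 3), 162.6 ± 11.8 at 135 min (n = 3) and 168.5 ± 25.1 at 405 min (n = 4). Its log2 fold change was 2.13 ± 0.18 at 135 min (edgeR adjusted p = 2.14e-05) and 2.18 ± 0.18 at 405 min (adjusted p = 7.09e-06), numerically above that of any tested member at the same time, a difference that was not tested. Bag3 rose by 0.87 ± 0.20 at 135 min (adjusted p = 0.04) and by 1.496 ± 0.18 at 405 min (adjusted p = 0.000161).

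The 5 largest fold changes among those called at 405 min were those of Zfand2a, Ahsa1, Bag3, Hsf1 and Hspbp1. Ahsa1, an activator of the HSP90 ATPase, had a log2 fold change of 1.52 ± 0.39 (edgeR adjusted p = 0.0161), and Hspbp1, an HSP70 nucleotide exchange factor, one of 1.43 ± 0.48 (adjusted p = 0.0428). Hsf1 itself was at 16.0 ± 12.8 CPM in control, 24.6 ± 9.9 at 45 min, 17.96 ± 1.72 at 135 min and 44.7 ± 17.1 at 405 min, so that the 405-min libraries overlapped the controls and all lay above the 135-min libraries. It was called higher at 405 min (1.46 ± 0.47, adjusted p = 0.0374) and not at 135 min (0.15 ± 0.51, adjusted p = 0.948). With the library set in the model the call at 405 min was lost for Hsf1 (0.85 ± 0.31, adjusted p = 0.0879) and for Hspbp1 (0.61 ± 0.30, adjusted p = 0.192). Hsf2 rose by 0.59 ± 0.13 at 135 min (adjusted p = 0.0393) and by 1.13 ± 0.12 at 405 min (adjusted p = 7.59e-05), and by 1.19 ± 0.13 at 405 min with the set in the model.

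From 135 to 405 min 3 of these 18 genes were called higher and none lower, against 2.24% and 2.82% of all genes. They were named after their values were seen. Ubb (0.94 ± 0.19, edgeR adjusted p = 0.0149), Hspb8 (0.79 ± 0.18, adjusted p = 0.0259) and Hsf2 (0.54 ± 0.14, adjusted p = 0.0412) rose. When any 135-min library or 405-min replicate 4 was left out, none of the 18 was called in either direction. Without 405-min replicate 1 there was 1 rise, without control replicate 2 there were 6, and without 405-min replicate 3 there were 5. The share of all genes called higher was 0.185% to 0.195% without a 135-min library and 0.447% without 405-min replicate 4. It was 0.758% without 405-min replicate 1, 7.34% without control replicate 2 and 5.63% without 405-min replicate 3.

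**Figure D5:**
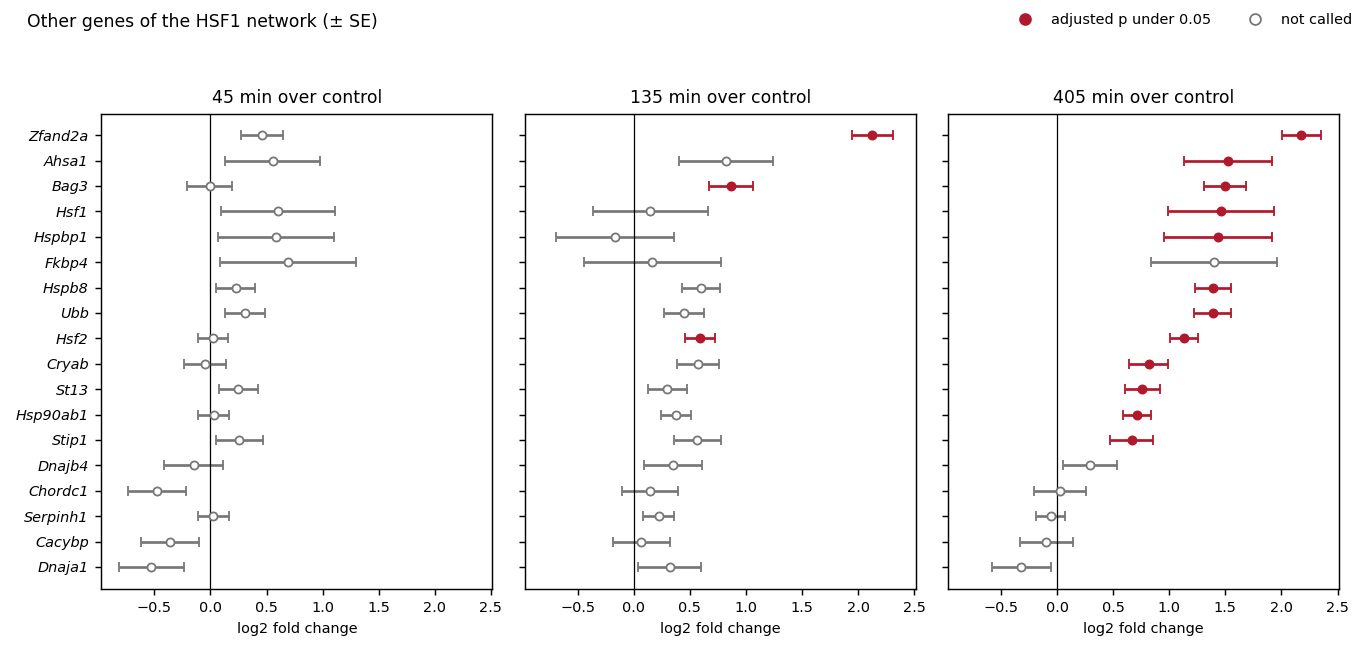
Log2 fold changes ± SE over control of the 18 tested other genes of the HSF1 network at 45, 135 and 405 min, ordered by the value at 405 min. Filled red points passed an adjusted p of 0.05: none at 45 min, 3 at 135 min and 12 at 405 min.

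The count of other network genes called at 135 min was 8 with the library set in the model and 6 within set 1, and 1 when control replicate 1, 4 or 5, 45-min replicate 1, any 135-min replicate or 405-min replicate 2 or 4 was left out. The share of all genes called higher at 135 min rose as well, from 0.564% to 3.06% with the set in the model and 2.08% within set 1. In the fits with a library left out that gave 1, it was 0.194% to 0.426%. At 405 min the count of network genes was 9 with the set in the model and 6 within each set, beside 6.17% of all genes called higher with the set in the model, 1.17% within set 1 and 1.90% within set 2.

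The mitochondrial chaperones and proteases, listed for comparison with Hspd1 and Hspe1, comprised 9 genes, all tested. At 135 min 1 was called lower and none higher, and at 405 min none was called (3 had an unadjusted p under 0.05, and DESeq2 also called none). The share of all genes was 0.564% called higher and 0.895% lower at 135 min, and 9.99% and 13.4% at 405 min. With the library set in the model Grpel1, named after its value was seen, was called higher at 405 min (0.54 ± 0.12, edgeR adjusted p = 0.00625), in place of 0.37 ± 0.14 (adjusted p = 0.0679). Without control replicate 2 there were 2 called higher and 1 lower at 405 min, beside 24.5% and 23.9% of all genes. Without 405-min replicate 3 there was 1 called lower, beside 19.9% of all genes. The gene called lower at 135 min was Dnaja3, which encodes a mitochondrial HSP40. It stood at 64.5 ± 12.2 CPM in control (SD, n = 5) and 37.3 ± 3.7 CPM at 135 min (n = 3), a log2 fold change of −0.79 ± 0.17 (edgeR adjusted p = 0.0341). That call was lost when control replicate 1 or 4, 45-min replicate 1, any 135-min replicate, or 405-min replicate 2 or 4 was left out. There 0.214% to 0.632% of all genes were called lower at 135 min. Hspa9, the mitochondrial HSP70, was at 719.1 ± 107.6 CPM in control, 772.3 ± 10.2 at 135 min and 625.1 ± 19.2 at 405 min, with log2 fold changes of 0.10 ± 0.13 and −0.20 ± 0.12 that were not called (adjusted p = 0.816 and 0.204).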

How the data were processed

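The authors aligned the mRNA-seq reads of 15 samples to mm9 and quantified RefSeq genes on the DNAnexus platform; the aligner is not given in the sources used here. The deposited read counts were expected counts, which need not be whole; 8.71% to 15.6% of the genes in each library were fractional. The authors also deposited RPKM, a Z score of the RPKM over the genes of a sample, and the ratio of each RPKM to the root mean square of the column; only the first was used, to compare levels between genes. Because the planned test needs whole numbers, the expected counts were rounded. The 10276 of 20207 genes with 1 count or more in all samples were tested with edgeR 4.0.16 (R 4.3.3), with TMM factors (0.8636 to 1.096), glmQLFit and glmQLFTest, a term for group, and Benjamini-Hochberg adjustment over all tested genes at 0.05. The SE is the log2 fold change over the square root of F. Group and replicate came from the sample titles. Total counts ranged from 6652539 to 30258404, and the counting error of low genes such as Hspa1a is correspondingly large. The 22 pairs of replicates differed by 9.97 to 237 chi-square units per degree of freedom, so each library was counted separately.

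Library sets were defined from the data: the slope of log2 CPM (prior count 2, centred over samples) on exonic GC content, known for 95.9% of the tested genes, was above 0.15 per 10 points in set 2. The first principal component held 56% of the variance and 5146 genes differed between the sets. Alternatives were DESeq2 1.42.0, RLE factors, other filters, only the compared groups, the library set as a term or within sets, a GC offset, a replicate block, each library left out, and Hspa1a and Hspa1b summed. The script was tested on simulated counts.

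The members and lists were chosen with earlier results of these data known. All 10 members are named. Of 19 other HSF1-network genes (1 more was listed and is not reported here), the 5 or fewer called genes that changed most on the log2 scale are named at 135 and at 405 min, plus Hsf1 and Hsf2, and of 9 mitochondrial genes up to 3 by the same rule plus Hspa9. The 5 genes most like the members were taken by Pearson correlation. Coordinates of genes are mm9 as deposited, and those of promoter segments are GRCm38.p6 from RefSeq.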

Additional observations from a re-analysis of the deposited data

Results flagged for a closer look

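Control replicate 2 was the highest of the 5 controls for Hspa1a, at 0.35 CPM, by a gap of 0.792 of the range of the group (limit 0.71). It was also the highest for Dnajb1, at 32.7 CPM, by a gap of 0.716. These were 2 of 20 groups of 4 or 5 libraries examined, and chance alone picks out about 1 in 20 groups. Control replicate 2 is the only control of library set 2.

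The log2 fold change of Hspa1b between 405 and 135 min, −2.94 (edgeR adjusted p = 0.00632), stood out as a difference between time points, with all 4 libraries at 405 min below all 3 at 135 min. It was −1.99 with the library set in the model.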

How the results depend on the processing

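The direction of the calls at 135 and 405 min over control did not turn under any alternative, whereas the counts of calls moved. Members called higher at 135 min, 4 in the reported fit, were 2 with no filter, 1 with only the compared groups, 1 with a replicate block and 2 with the block and a GC offset. The share of all genes called higher was 0.564% in the reported fit. In these alternatives it was 0.163%, 0.154%, 0.107% and 0.496%, in that order. With the GC offset alone they were 3, beside 1.51% of all genes, and Hspa1b lost its call (1.74, edgeR adjusted p = 0.196). With edgeR's expression filter they were 3 as well, without Hspa8, beside 0.408% of all genes. At 405 min the count of 3 fell to 1 within library set 2 and was 2, without Dnajb1, with no filter, only the compared groups, the replicate block or within set 1. It was 4 with the library set in the model or the GC offset, each with or without the block, where Hsp90aa1 and Hspa4l were called and Dnajb1 was not, and 4 with edgeR's expression filter, which adds Hspa1a. Of all genes 9.99% were called higher at 405 min in the reported fit. The share was 3.64% with no filter, 3.38% with only the compared groups and 3.24% with the block. It was 6.17% with the set, 5.72% with set and block, 11.0% with the offset and 6.44% with offset and block. With the expression filter it was 7.62%. From 45 to 135 min the count of 2 fell to 1 within set 1 and with a GC offset, and to 0 with the replicate block, with or without the GC offset. Over all genes 0.185% were called higher in the reported fit, 0.145% within set 1 and 0.36% with the offset. With the block the share was 0.00973%, and with block and offset 0.107%. Members called lower from 135 to 405 min, 1 in the reported fit, were 2 with only the compared groups, the library set in the model, the GC offset, or the offset together with the block, and 0 within set 1 and with the block alone. Where 2 were called, the second was Hspd1 with only the compared groups and Dnajb1 otherwise. In those fits 10.9%, 2.01%, 6.4% and 1.78% of all genes were called lower, against 2.82% in the reported fit. With each library left out in turn the counts were 1 to 4 higher at 135 min, 2 to 3 higher and 0 to 1 lower at 405 min, 0 to 2 higher from 45 to 135 min and 1 lower from 135 to 405 min. Over all genes 0.194% to 1.12% were then called higher at 135 min, and 4.06% to 24.5% higher and 5.14% to 23.9% lower at 405 min. From 45 to 135 min 0.0292% to 0.256% were called higher, and from 135 to 405 min 0.224% to 6.03% lower. The cause was not tested.

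Signs turned only for members that were not called. Hspa4l at 135 min was −0.00128 with the set in the model, −0.0483 within set 1 and −0.0527 to 0.2635 with a library left out. At 405 min within set 2 Hspa1b was 0.35, Hspd1 0.11 and Hspa4 0.0838. Hspa4 at 405 min was also 0.0495 with the set in the model, 0.0948 with the GC offset, 0.0583 and 0.0725 with the replicate block beside each of these, and −0.109 to 0.0152 with a library left out, and Hspe1 ran from −0.0358 to 0.144. Of 576 values of single members under alternatives, 462 kept their side of the threshold and direction.

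No pairing by replicate number was seen: deviations of same-numbered samples of different groups correlated at −0.71 to 0.44 (mean −0.11, 19 pairs), and 2 of 15 samples correlated best with their own number. The library set was not removed from these deviations, whose mean correlation was 0.16 within a set and −0.17 between sets. Same-numbered samples often lay in different sets, so this check cannot decide whether the numbers pair the samples. No sample of 135 min is in set 2, so that time point has no value there. Depth limits Hspa1a, which held at most 26 counts in a library.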
